A study of Homo sapiens with 3 samples.

Results

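The 10 genes described here, TNF, NFKBIA, TNFAIP3, NFKBIZ, NFKB1, NFKB2, RELB, BIRC3, IER3 and ICAM1, were picked by symbol out of the 36601 genes in the counts as known targets and feedback regulators of the transcription factor NF-kB, together with the cytokine gene TNF. These genes and the lists used below were chosen with earlier results of these data known, so counts against all genes are no test of them. The 10 genes were followed in OVCAR3, an established line derived from a high-grade serous ovarian carcinoma, in cultures kept for 48 hours with the solvent DMSO, with 50 µM of the RAC1 inhibitor NSC23766 (RAC1i), or with 50 µM NSC23766 and 5 µM of the EZH2 inhibitor GSK126 (Combo). All cultures received DMSO as the solvent of both agents. RAC1 is a small GTPase of the cytoskeleton and of oxidant production, and EZH2 is the methyltransferase that places a repressive mark on histones. Each condition was 1 single-cell library, so no difference between conditions has a replicate check, no test was made, and the error given with a value is a 95% interval for counting error only.

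NF-kB is a family of dimers held in the cytoplasm by inhibitor proteins of the IkB family. When a receptor such as the TNF receptor is engaged, a kinase complex marks the inhibitor for degradation, and the freed dimer enters the nucleus and switches on target genes. Several of these targets shut the pathway down again, among them NFKBIA, which encodes the inhibitor IkB-alpha itself, and TNFAIP3, which encodes an enzyme that edits ubiquitin chains at the receptor complex. A second branch works through the precursor encoded by NFKB2 and its partner RELB. TNF is both a target of NF-kB and a ligand that can activate it again, in the same cell or in a neighbour.

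After the study's own limits on cells (over 1000 genes detected, no more than 20% of UMIs from mitochondrial genes, complexity above 0.8), 7531 DMSO, 10215 RAC1i and 8239 Combo cells remained, with medians of 26750, 20989 and 24953 UMIs per cell. A UMI is a molecular tag that counts 1 captured mRNA molecule. Levels are given as CPM, the UMIs of a gene per 1000000 UMIs summed over the kept cells, and serve to compare 1 gene between libraries. For shares of cells and for divisions of cells, 5000 UMIs were drawn at random from every cell (thinning), which left 6725, 9200 and 7354 cells and left out 806, 1015 and 885 shallower ones. The libraries shared at most 23 cell barcodes. The epithelial marker EPCAM was present at 320 CPM in DMSO, 274 CPM under RAC1i and 302 CPM under Combo, and the leukocyte marker PTPRC was at or near 0 (2, 5 and 0 UMIs in all). The summed level of the 9 epithelial and serous markers was lower in the treated libraries (3966, 2127 and 2379 CPM), and the summed level of 8 leukocyte markers was higher (2.67, 11.1 and 11 CPM). Of the latter, CD14 accounted for 0.894, 7.62 and 7.50 CPM and ITGAM for 0, 1.64 and 1.78 CPM, and the other 6 stayed below 1 CPM in every library. The 6 fibroblast markers summed to between 5.76 and 5.89 CPM and the 4 endothelial markers to between 1.24 and 1.91 CPM. The part of these differences in the results was not tested.

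The stretches of DNA just before the start sites of the genes were searched for the letters that NF-kB dimers are known to bind. The set of RefSeq (GRCh38.p14) windows used here covered 8 of the 10 genes, all but RELB and IER3, in 12 windows of 250 bases ending at the start site. The kB consensus, a motif of 10 bases searched on both strands, was found in 8 of the 12 windows, covering 6 of the 8 genes, against 5.21% of all 35116 windows. The looser pattern of GGG, any 5 bases and CC, of which every kB consensus match is also a match, stood in all 12 windows and in 54.4% of all windows. Windows of the inhibitor genes and BIRC3, of 1 gene without a match and of CXCL1, the chemokine gene used below to divide cells, are printed 5′ to 3′ to show where these letters lie, with kB consensus matches in capitals. The stretches are chr14:35404750-35404999 on the minus strand for NFKBIA, and on the plus strand chr6:137867009-137867213 for TNFAIP3, chr3:101827740-101827989 for NFKBIZ, chr11:102317234-102317483 for BIRC3, chr6:31575315-31575564 for TNF and chr4:73869143-73869392 for CXCL1, each lying before the annotated gene. The TNFAIP3 stretch was ended where GENCODE 44 lets the gene begin.
NFKBIA: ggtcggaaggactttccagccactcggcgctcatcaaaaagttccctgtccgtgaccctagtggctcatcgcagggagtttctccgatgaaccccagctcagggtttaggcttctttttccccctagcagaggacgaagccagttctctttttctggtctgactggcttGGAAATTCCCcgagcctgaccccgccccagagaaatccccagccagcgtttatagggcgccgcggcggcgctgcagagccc
TNFAIP3: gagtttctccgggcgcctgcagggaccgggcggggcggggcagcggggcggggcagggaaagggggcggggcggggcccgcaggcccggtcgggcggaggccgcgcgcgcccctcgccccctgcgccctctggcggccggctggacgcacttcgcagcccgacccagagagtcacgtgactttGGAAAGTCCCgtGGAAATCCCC
NFKBIZ: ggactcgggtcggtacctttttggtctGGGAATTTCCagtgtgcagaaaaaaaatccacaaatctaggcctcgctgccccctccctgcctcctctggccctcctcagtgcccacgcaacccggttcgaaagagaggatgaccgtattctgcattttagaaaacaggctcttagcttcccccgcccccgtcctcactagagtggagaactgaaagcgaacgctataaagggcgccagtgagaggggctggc
BIRC3: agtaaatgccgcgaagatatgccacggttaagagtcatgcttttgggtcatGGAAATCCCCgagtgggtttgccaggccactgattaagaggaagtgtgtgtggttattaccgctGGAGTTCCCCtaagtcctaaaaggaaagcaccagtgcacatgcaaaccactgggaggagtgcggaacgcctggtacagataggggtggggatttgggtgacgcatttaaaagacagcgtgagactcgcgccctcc
TNF: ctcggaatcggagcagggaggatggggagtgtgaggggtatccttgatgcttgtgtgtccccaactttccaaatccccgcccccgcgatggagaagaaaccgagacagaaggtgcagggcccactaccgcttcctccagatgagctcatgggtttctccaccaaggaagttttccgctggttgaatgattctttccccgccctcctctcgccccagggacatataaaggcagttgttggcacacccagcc
CXCL1: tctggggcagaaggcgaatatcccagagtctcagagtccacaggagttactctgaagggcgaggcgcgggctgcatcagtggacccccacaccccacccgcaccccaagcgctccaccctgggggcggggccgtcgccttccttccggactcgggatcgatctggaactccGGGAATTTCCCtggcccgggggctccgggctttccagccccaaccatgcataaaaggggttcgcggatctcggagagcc
In NFKBIA the match began 81 bases before the start site, in TNFAIP3 matches began at 67 and 55 bases before the RefSeq start site, which lies beyond the end of the stretch shown, and in BIRC3 at 199 and 135 bases. NFKBIZ had a match at 223 bases in the window shown and another, GGGGTTTCCC, before its second start site. CXCL1 held a pair of overlapping matches at 79 and 78 bases. NFKB1 carried GGGAATTTCC 49 bases before its first start site, and NFKB2 carried matches before 2 of its 3 start sites, among them GGGACTTTCC at 21 bases. Those 2 NFKB2 windows and the window at the second NFKBIZ start site lie inside the annotated genes. The NFKB2 window before the gene held no kB consensus. The TNF and ICAM1 windows held no kB consensus, which says only that these letters were absent from 250 bases. A match is a description of sequence and was not tied to binding in these cells.

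The first question was how the genes differed between RAC1i and DMSO. Of the 9 genes with at least 5 CPM averaged over the 3 libraries, all 9 were at least 2-fold higher in RAC1i, where 13.1% of the 9745 genes counted in the same way were. Of the 9, TNF, TNFAIP3 and ICAM1 were below 5 CPM in DMSO and reached the minimum through the treated libraries, so their place in the count follows from the filter. The other 6 had at least 5 CPM in DMSO, and all 6 were 2-fold higher in RAC1i. The median log2 ratio of these 6 was 1.81, and that of the 9 was 2.93, against -0.18 for all genes counted. BIRC3 lay below the minimum and was left out of the counts, but its values pointed the same way. Because the genes were chosen with earlier results of these data known, the share over all genes gives a scale and no test. Per gene, TNF, the feedback inhibitors, IER3 and ICAM1 stood far above DMSO, while the genes of the NF-kB subunits stood between 2.02 and 2.64-fold above it.

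**Figure D1:**
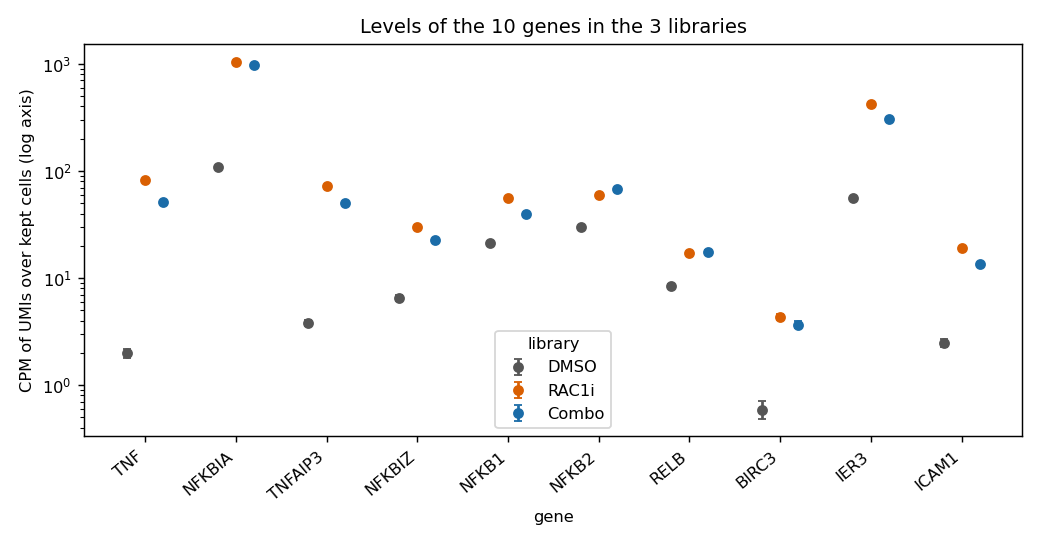
CPM of the 10 genes (log axis) in the DMSO, RAC1i and Combo libraries, 1 point per library with its 95% counting interval. All 10 genes were lowest in DMSO, and NFKB2 and RELB were the only ones whose Combo point lay above the RAC1i point.

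TNF (chr6:31575565-31578336, plus strand) encodes the ligand. Its level was 1.98 CPM (95% interval 1.79 to 2.19) in DMSO, 82.4 CPM (81.2 to 83.5) under RAC1i and 51.6 CPM (50.6 to 52.6) under Combo. Both treated libraries were high, and DMSO held 395 TNF UMIs over all its cells. The ratio was 41.5 (37.6 to 46.0) for RAC1i over DMSO and 26.0 (23.5 to 28.8) for Combo over DMSO. A thinned cell held a TNF UMI in 0.714% of DMSO cells (95% interval 0.527 to 0.945%), 23.9% of RAC1i cells (23.0 to 24.8%) and 17.6% of Combo cells (16.7 to 18.5%). Without thinning the shares were 3.70, 43.6 and 34.7%. OVCAR3 was the only kind of cell in the libraries, so there was no cell type lacking the gene in which to read the level that free RNA gives. Of all TNF UMIs, 50% lay in 82 DMSO cells (1.09%), 679 RAC1i cells (6.65%) and 416 Combo cells (5.05%). In RAC1i that share of cells was 6.10% for ICAM1, 3.42% for BIRC3 and 20.5% for NFKBIA. The share is also small where a gene has few UMIs, as BIRC3 did (1007 in RAC1i), so it does not rank genes by concentration. The variance over the mean of thinned counts, near 1 for counting error alone, was 1.36 for TNF in DMSO. In RAC1i it was 2.90 for TNF, 1.40 for ICAM1, 1.06 for BIRC3 and 8.64 for NFKBIA.

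The inhibitor genes NFKBIA (chr14:35401079-35404749, minus strand) and TNFAIP3 (chr6:137867214-137883314, plus strand) followed the same order of DMSO, Combo and RAC1i. NFKBIA was at 109 CPM (107 to 110) in DMSO, 1042 CPM (1038 to 1046) under RAC1i and 981 CPM (977 to 986) under Combo. Its treated levels thus lay close together and far from DMSO, with ratios to DMSO of 9.57 (9.44 to 9.71) and 9.02 (8.90 to 9.15). It was the most widely detected of the 10 genes, in 36.8, 88.5 and 87.2% of thinned cells. TNFAIP3 was at 3.79 CPM (3.53 to 4.07) in DMSO, 71.9 CPM (70.8 to 73.0) under RAC1i and 50.0 CPM (49.1 to 51.0) under Combo. Its ratios to DMSO, 19.0 (17.6 to 20.4) and 13.2 (12.2 to 14.2), were the next largest after those of TNF, and its share of thinned cells went from 1.5% in DMSO to 28.1% in RAC1i and 22.0% in Combo. NFKBIZ (chr3:101827991-101861022, plus strand), which encodes an inhibitor-like nuclear protein that helps switch on a subset of targets, was at 6.50 CPM (6.15 to 6.86), 30.1 CPM (29.4 to 30.8) and 22.6 CPM (21.9 to 23.2). It was 4.63-fold (4.37 to 4.92) higher in RAC1i and 3.47-fold (3.27 to 3.70) higher in Combo than in DMSO.

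The subunit genes differed less. NFKB1 (chr4:102501330-102617302, plus strand), which encodes a precursor that is also an inhibitor, was at 21.1 CPM (20.5 to 21.8) in DMSO, 55.8 CPM (54.8 to 56.7) under RAC1i and 39.7 CPM (38.8 to 40.5) under Combo. NFKB2 (chr10:102394110-102402524, plus strand) was at 29.6 CPM (28.9 to 30.4), 59.8 CPM (58.9 to 60.8) and 67.7 CPM (66.6 to 68.8). RELB (chr19:45001461-45038192, plus strand) was at 8.41 CPM (8.02 to 8.83), 17.1 CPM (16.6 to 17.7) and 17.5 CPM (16.9 to 18.1). NFKB1 was therefore highest in RAC1i, and NFKB2 was highest in Combo. RELB in Combo and RAC1i had overlapping intervals. In RAC1i the ratios to DMSO were 2.64 (2.55 to 2.73) for NFKB1, 2.02 (1.96 to 2.08) for NFKB2 and 2.03 (1.92 to 2.16) for RELB, so NFKB2 and RELB stood at the edge of the 2-fold limit. RELA, which encodes the main activating subunit and was on a list of other subunits and IkB proteins, was at 31.6, 45.4 and 49.1 CPM.

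Among the remaining targets, IER3 (chr6:30743199-30744548, minus strand), an early response gene that affects survival, was at 55.6 CPM (54.5 to 56.6) in DMSO, 425 CPM (422 to 427) under RAC1i and 309 CPM (306 to 311) under Combo. ICAM1 (chr19:10271093-10286615, plus strand), which encodes an adhesion molecule for leukocytes, was at 2.48 CPM (2.27 to 2.71), 19.1 CPM (18.5 to 19.7) and 13.4 CPM (13.0 to 13.9). BIRC3 (chr11:102317484-102339403, plus strand), which encodes a ubiquitin ligase that protects cells from death at the TNF receptor, was at 0.588 CPM (0.486 to 0.704), 4.29 CPM (4.03 to 4.56) and 3.66 CPM (3.40 to 3.92). The 3 genes shared 1 order, with DMSO lowest and RAC1i highest, and none of their DMSO intervals reached a treated one. RAC1i over DMSO was 7.64 (7.49 to 7.79) for IER3, 7.69 (7.01 to 8.46) for ICAM1 and 7.29 (6.02 to 8.91) for BIRC3.

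**Figure D2:**
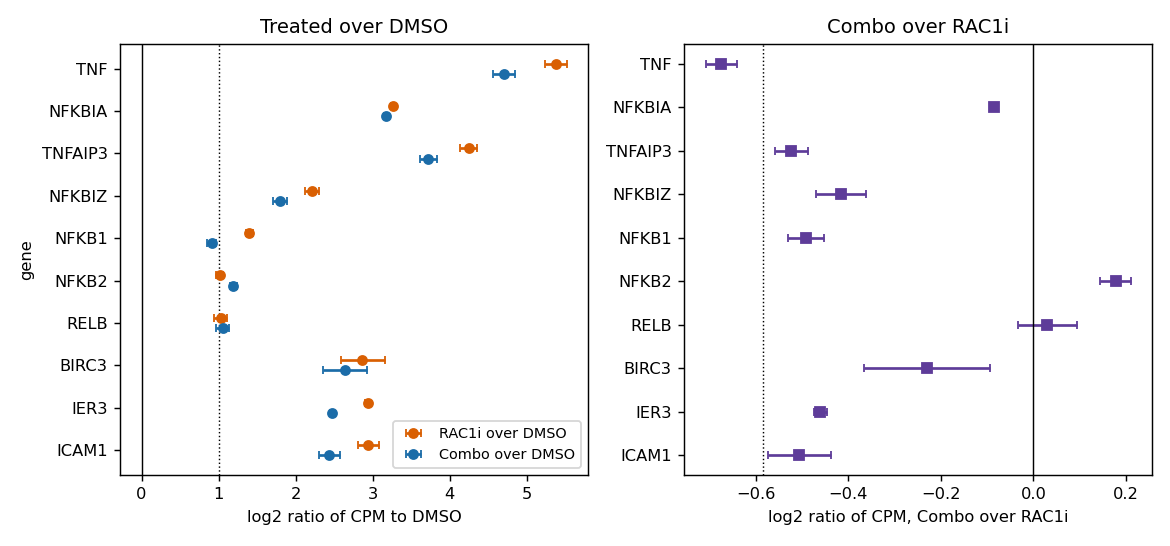
Log2 ratios of CPM with 95% counting intervals for the 10 genes, treated over DMSO on the left and Combo over RAC1i on the right. Dotted lines mark 2-fold higher and 1.5-fold lower, and TNF is the only gene left of the dotted line on the right.

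In Combo, 8 of the 9 counted genes were at least 2-fold higher than in DMSO, against 12.0% of all genes counted, with a median log2 ratio of 2.44 against -0.15. Of the 6 with at least 5 CPM in DMSO, 5 were, and their median log2 ratio was 1.49. NFKB1 was the exception at 1.88 (1.81 to 1.95), and as a mean over cells of each cell's CPM it reached 2.23. Both comparisons used the same DMSO library. The other ratios to DMSO in Combo were 2.28 (2.22 to 2.35) for NFKB2, 2.08 (1.96 to 2.20) for RELB, 5.55 (5.44 to 5.67) for IER3, 5.42 (4.92 to 5.97) for ICAM1 and 6.22 (5.12 to 7.62) for BIRC3. With the mean over cells, which weights every cell equally, 7 ratios to DMSO were more than 1.5 times those from summed UMIs. These were 29.2 in RAC1i and 22.0 in Combo for TNFAIP3, 13.0 and 11.9 for BIRC3, and, in Combo, 39.2 for TNF, 13.8 for NFKBIA and 5.25 for NFKBIZ.

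The next question was what the addition of the EZH2 inhibitor changed. Only TNF of the 9 counted genes was at least 1.5-fold lower in Combo than in RAC1i, where 0.534% of all genes counted were. Its level was 1.60-fold lower (95% interval 1.56 to 1.63), a log2 ratio of -0.67. As a mean over cells of each cell's CPM the log2 ratio was -0.58, just short of 1.5-fold. TNFAIP3 was 1.44-fold lower (1.40 to 1.47), ICAM1 1.42-fold (1.36 to 1.49), NFKB1 1.41-fold (1.37 to 1.44), IER3 1.38-fold (1.36 to 1.39) and NFKBIZ 1.33-fold lower (1.29 to 1.38). Of the counted genes, 7 of 9 lay below RAC1i and 2 above it, where 5274 of all 9745 genes counted lay above it. The median log2 ratio was -0.46 against 0.02 for all genes counted. The exceptions were NFKB2, 1.13-fold higher (1.11 to 1.16), and RELB at a ratio of 1.02 (0.977 to 1.07), which fell to 0.994 with every deposited barcode. These are the pair of the second branch of the pathway, but the direction was not particular to them. Of 6 further subunits and IkB proteins counted, 4 were also higher in Combo than in RAC1i, among them REL. NFKBIA moved least among the genes that were lower, at a ratio of 0.942 (0.937 to 0.948), and with each cell given equal weight by thinning its ratio was 1.00. Of the chemokine and cytokine genes, CXCL8 was 2.46-fold (2.36 to 2.57), IL6 1.78-fold (1.75 to 1.82), CXCL1 and CXCL2 each 1.75-fold and CXCL3 1.51-fold lower.

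The genes were then followed cell by cell. A thinned DMSO cell held a UMI of none of the 10 genes in 38.1% of cases and of 3 or more in 4.83%. In RAC1i these shares were 4.03 and 56.4%, and in Combo 4.87 and 48.2%. The mean number detected was 0.891, 2.91 and 2.62 of the 10 genes. No thinned DMSO cell held more than 5 of them, while 572 RAC1i cells and 293 Combo cells did.

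**Figure D3:**
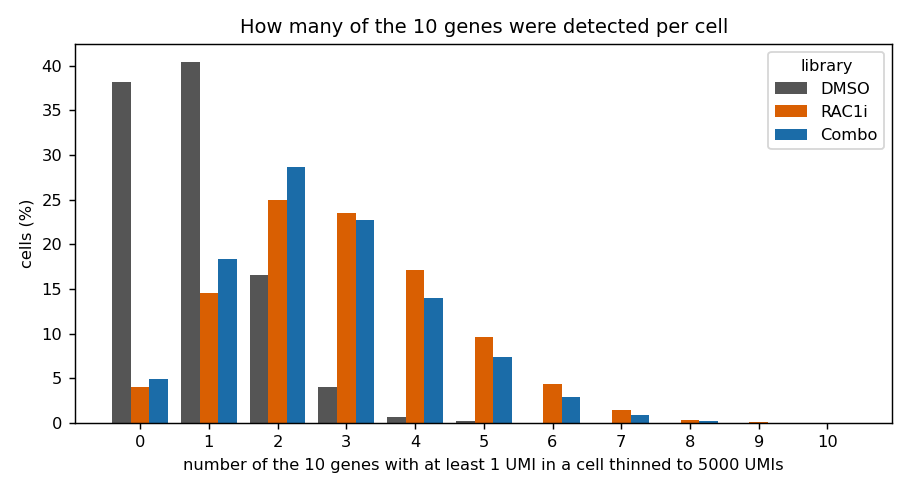
Share of cells (%) by the number of the 10 genes with at least 1 UMI, in cells thinned to 5000 UMIs, for the 3 libraries. The DMSO bars peak at 1 gene (40.4%), the Combo bars at 2 (28.6%) and the RAC1i bars at 2 (25%), with a tail to 9 genes in the treated libraries.

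CXCL1 encodes a chemokine that draws neutrophils and is itself an NF-kB target. After thinning, 688 DMSO cells (10.2%), 5275 RAC1i cells (57.3%) and 3267 Combo cells (44.4%) held a CXCL1 UMI. Before thinning, cells with and without it had medians of 30868 and 28492 UMIs in DMSO, 22237 and 24012 in RAC1i and 24630 and 29964 in Combo. In RAC1i all 9 counted genes were at least 1.5-fold higher in the cells with CXCL1, against 2.85% of 9156 genes counted there, and in Combo again all 9, against 2.49% of 9197. Their median log2 ratios were 0.97 in RAC1i and 0.95 in Combo, where those of all genes were -0.08 and -0.11. In DMSO 4 of 6 counted genes reached 1.5-fold (NFKBIA, NFKBIZ, NFKB1 and IER3), against 2.37% of 9991. With another random draw of the thinning the DMSO count was 2 of 6 (NFKBIA and IER3).

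TNF and BIRC3 had the highest ratios in both treated libraries, with intervals that overlapped each other, and their order changed with the depth and the random draw of the thinning. In RAC1i TNF was at 137 CPM in cells with CXCL1 and at 38.3 CPM in those without, a ratio of 3.58 (3.31 to 3.88). In Combo the levels were 97.6 and 34.3 CPM, a ratio of 2.85 (2.61 to 3.12), and in DMSO 6.11 and 1.13 CPM, a ratio of 5.42 (2.99 to 9.61) from 21 and 34 UMIs that was 3.18 with thinning to 2500 UMIs. A TNF UMI was seen in 32.7% of RAC1i cells with CXCL1 and in 12% of those without.

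In RAC1i the other ratios were 3.21 (2.28 to 4.60) for BIRC3, 2.99 (2.55 to 3.53) for ICAM1, 2.51 (2.33 to 2.71) for TNFAIP3, 2.25 (2.01 to 2.53) for NFKBIZ and 1.95 (1.90 to 2.01) for IER3. NFKBIA, at 1546 against 840 CPM, had a ratio of 1.84 (1.81 to 1.88). The subunit genes came last in this order of ratios, with 1.83 (1.58 to 2.13) for RELB, 1.79 (1.65 to 1.95) for NFKB1 and 1.55 (1.43 to 1.67) for NFKB2. Every neighbour in this order overlapped the next in its interval except IER3 and NFKBIA. These intervals cover counting error only, and the variance over the mean of thinned RAC1i counts was 5.25 for IER3 and 8.64 for NFKBIA. The order of these 2 genes is therefore not settled by the intervals. In Combo the ratios ran from 1.56 (1.44 to 1.68) for NFKB2 to 3.04 (2.14 to 4.36) for BIRC3, which had 47 UMIs in the cells without CXCL1. With thinning to 2500 UMIs BIRC3 stood at 2.03 and TNF at 2.67 in Combo, and with thinning to 10000 UMIs BIRC3 stood at 5.00. Without thinning TNF reached 4.52 in Combo. In DMSO, TNFAIP3 had a ratio of 5.67 (3.75 to 8.49) and NFKBIA of 1.71 (1.56 to 1.86), while the intervals for RELB (0.982 to 2.03) and BIRC3 (0.566 to 7.35) included 1.

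The levels were graded over the number of CXCL1 UMIs. In RAC1i, TNF was at 38.3 CPM in the 3925 cells with 0 CXCL1 UMIs, at 71.1 CPM in the 1795 cells with 1, at 119 CPM in the 1649 cells with 2 to 3 and at 218 CPM in the 1831 cells with 4 or more. The CPM of all 10 genes went up at each step in RAC1i and in Combo, and no share over all genes is given beside this. Intervals of neighbouring steps overlapped for some genes, among them BIRC3. In RAC1i it was at 5.13 CPM (3.75 to 6.84) with 1 CXCL1 UMI and 5.95 CPM (4.40 to 7.86) with 2 to 3. In RAC1i 8 of the 10 gained most CPM at the last step, among them IER3 from 478 to 840 CPM and ICAM1 from 21.4 to 47.6 CPM, and NFKBIA (from 840 to 1313 CPM) and NFKB2 gained most at the first. In Combo 5 and in DMSO 3 of the 10 gained most at the last step. The group with 4 or more has no upper limit, so the last step can span more CXCL1 UMIs than the others. In DMSO, NFKBIA was at 102, 132, 172 and 366 CPM over the same groups of 6037, 432, 158 and 98 cells. TNF, TNFAIP3, NFKBIZ and IER3 also went up at each step in DMSO. The groups with CXCL1 there held only 9, 6 and 6 UMIs of TNF, 21, 12 and 9 of TNFAIP3 and 15, 9 and 7 of NFKBIZ. The intervals of these 3 genes overlapped between those groups. The other 5 genes there did not, among them NFKB2 with 28.0, 38.4, 29.1 and 34.7 CPM.

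**Figure D4:**
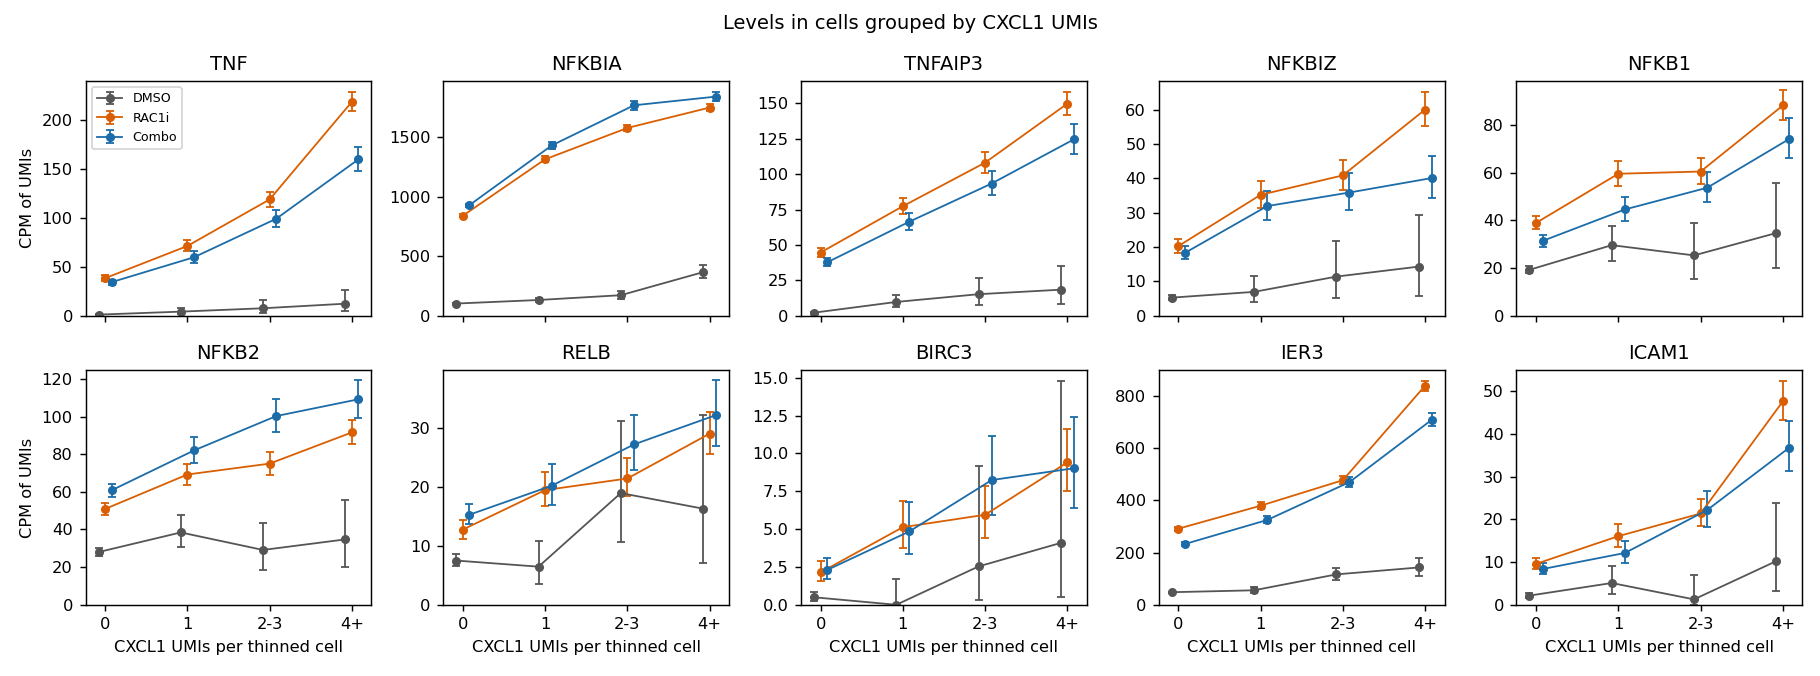
CPM of each gene (linear axes from 0) against the number of CXCL1 UMIs in a thinned cell, with 95% counting intervals, for the 3 libraries. In RAC1i and Combo every panel climbs from left to right, and the Combo points lie above the RAC1i points at each number of CXCL1 UMIs for NFKBIA, NFKB2 and RELB.

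The difference from DMSO was also present in cells whose thinned draw held no CXCL1 UMI. Without thinning, 23.4% of DMSO, 77.7% of RAC1i and 66.9% of Combo kept cells held a CXCL1 UMI. Some cells of this group therefore did carry CXCL1. Cells with a CXCL1 UMI numbered 1760, 7933 and 5513 without thinning and 688, 5275 and 3267 after it. Whatever the shallow cells left out held, carriers made up a larger share of this group in RAC1i and Combo than in DMSO. The groups are therefore unlike, and the ratios below are not between cells free of CXCL1. Within cells without a CXCL1 UMI, all 10 genes were higher in RAC1i than in DMSO, with a median log2 ratio of 2.13, and all 10 in Combo, with a median of 2.08. They include BIRC3, with 15 UMIs in DMSO there, and TNF, TNFAIP3 and ICAM1, which reached the minimum through the treated libraries. No share or median over all genes is given for these values. Over all kept cells, 4192 of 9745 genes counted were higher in RAC1i than in DMSO and 4249 in Combo. Of the 9 counted genes 7 were at least 2-fold higher in RAC1i, against 13.8% of 9744 genes counted, and 8 in Combo, against 12.6%. Of the 6 that had at least 5 CPM in DMSO, 4 were 2-fold higher in RAC1i (not NFKB2 and RELB) and 5 in Combo (not NFKB1). There NFKBIA reached 840 CPM under RAC1i and 928 CPM under Combo against 102 CPM in DMSO, and TNF at 38.3 and 34.3 against 1.13 CPM. Between Combo and RAC1i the ratio of TNF was 0.627 over all kept cells, without thinning. Inside the groups of thinned cells it was 0.713 (0.672 to 0.757) with CXCL1 and 0.895 (0.806 to 0.994) without, which is nearer to 1. Thinning and the loss of shallow cells changed the measure as well, and their part in this shift was not tested. None of the 10 genes was 1.5-fold lower in either group, a count with no share over all genes beside it. NFKBIA was 1.06-fold (1.04 to 1.08) and 1.11-fold (1.08 to 1.13) higher in Combo.

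When cells were divided by TNF in place of CXCL1, the 2197 RAC1i cells with a TNF UMI had NFKBIA at 2110 CPM and the 7003 without at 973 CPM, a ratio of 2.17 (2.13 to 2.21). The highest ratios in RAC1i were 2.77 (2.43 to 3.15) for ICAM1, 2.58 (2.34 to 2.85) for NFKBIZ and 2.5 (2.34 to 2.66) for TNFAIP3. NFKB2 had the lowest, 1.45 (1.34 to 1.56). In Combo, with 1293 cells, the ratios ran from 1.27 (1.16 to 1.40) for NFKB2 to 2.64 (2.30 to 3.02) for NFKBIZ. Of the 8 counted genes in each treated library, 7 were at least 1.5-fold higher in the cells with TNF, against 2.66% of all genes counted in RAC1i and 3.01% in Combo. In DMSO 5 of 6 counted genes reached 1.5-fold, but so did 14.9% of all genes counted, and there were 48 such cells. In these NFKBIA was 2.73-fold (2.13 to 3.46) and IER3 3.28-fold (2.33 to 4.48) higher.

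Across thinned cells the genes most like NFKBIA by Pearson's r averaged over the libraries, among 5563 genes with at least 20 CPM, were GADD45B, JUNB, ID1, ELF3 and HES1. For GADD45B, a stress response gene and NF-kB target, r was 0.06 in DMSO cells, 0.60 in RAC1i cells and 0.61 in Combo cells, and for JUNB, a subunit of the transcription factor AP-1, it was 0.03, 0.60 and 0.62. TNFAIP3 was most like NFKBIA, GADD45B, JUNB, CXCL1 and HES1, with r to NFKBIA of 0.10, 0.38 and 0.35. TNF was most like EFNA1, NFKBIA, IER3, JUNB and GADD45B, with r to EFNA1, which encodes an ephrin ligand induced by TNF, of 0.03, 0.42 and 0.37. NFKB2 had GADD45B, ELF3, NFKBIA, DDIT3 and JUNB as its closest genes with r of at most 0.19 in any library, which is weak. These values describe 6725, 9200 and 7354 cells of 1 library each, and the cells of a library share their culture and differ in depth before thinning. Few UMIs per cell lower r through counting error alone. In DMSO, 36.8% of thinned cells held a UMI of NFKBIA and 0.714% a UMI of TNF. How much of the lower r in DMSO came from this was not tested.

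The levels moved with the depth of a cell. In RAC1i, NFKBIA was at 2736 CPM in the quartile of cells with the fewest UMIs and at 781 CPM in that with the most, a ratio of 3.5 (3.46 to 3.54), and in Combo at 2848 and 680 CPM, a ratio of 4.19 (4.13 to 4.24). In DMSO it was at 123 and 109 CPM, a ratio of 1.12 (1.06 to 1.19). TNF likewise went from 144 to 69.5 CPM in RAC1i and from 96.4 to 36.4 CPM in Combo, while in DMSO it went the other way, from 0.876 to 2.5 CPM. NFKB1 had the ratio nearest to 1 in RAC1i, at 57.7 and 55.4 CPM. In each quartile of total UMIs all 10 genes exceeded their DMSO level in both treated libraries. The median ratios narrowed from 19.7 in the lowest to 5.01 in the highest quartile for RAC1i and from 16.3 to 3.46 for Combo. No share over all genes is given for the quartiles, so these values describe the 10 genes only. They include BIRC3, with 6 UMIs in the lowest DMSO quartile, and TNF, TNFAIP3 and ICAM1, which reached the minimum through the treated libraries. With only the cells of at least 10000 UMIs, an alternative chosen after seeing the data, 7 of 9 counted genes were at least 2-fold higher in RAC1i (not NFKB2 and RELB), against 12.6% of 9722 genes counted in those cells, and 7 of 9 in Combo (not NFKB1 and RELB), against 11.7%.

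**Figure D5:**
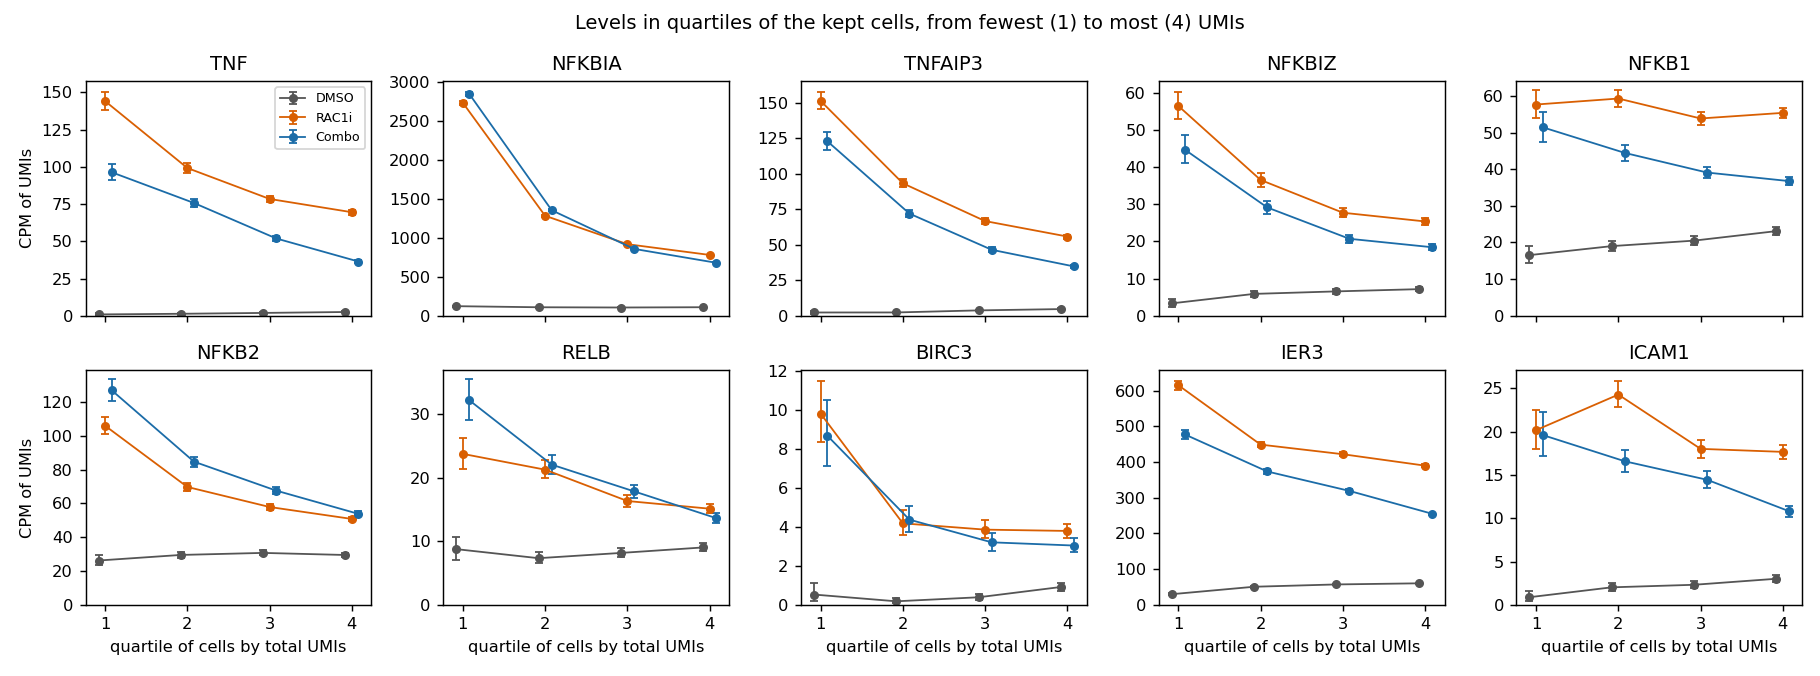
CPM of each gene (linear axes from 0) in quartiles of the kept cells of each library ordered by total UMIs, with 95% counting intervals. In both treated libraries the level was higher in the quartile with the fewest UMIs than in that with the most for all 10 genes (NFKBIA 2736 and 781 CPM in RAC1i), and the DMSO line lies below both treated lines in every panel.

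The mitochondrial share of a cell was lower in the treated libraries, with a median of 1.66% for RAC1i and 1.58% for Combo against 5.60% for DMSO. Quartiles of each kind were set within each library, so the highest quartile of this share began at 7.84% in DMSO, 2.88% in RAC1i and 2.75% in Combo, and quartiles of the same rank do not hold cells of like share. Over these quartiles the direction was the same, with all 10 genes higher in both treated libraries than in DMSO in every quartile and median ratios between 4.49 and 7.27. The order of Combo and RAC1i depended on this share. In the 3 lower quartiles the median ratio of Combo over RAC1i was between 0.696 and 0.739, and in the highest quartile it was 1.05, with 6 of 10 genes higher in Combo. There NFKBIA reached 1749 CPM with Combo and 1396 CPM with RAC1i. Cells were also grouped at the quartile limits of the summed UMIs of 16 proliferation genes. Tied counts made these groups unequal, with 1856, 1522, 1896 and 1451 cells in DMSO, 3775, 1437, 1886 and 2102 in RAC1i and 3174, 1208, 1481 and 1491 in Combo. The highest group began at 11 UMIs in DMSO and at 6 in RAC1i and Combo, so groups of the same rank hold unlike cells. In every group all 10 genes were again higher in both treated libraries than in DMSO. The lowest median ratios of RAC1i over DMSO (5.55) and of Combo over DMSO (5.11) were in the group with the most proliferation UMIs. The counts of genes over these groups of cells also have no share over all genes beside them. The part of depth, mitochondrial share and cycling in the levels was not tested.

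The rest of the pathway was read from lists of genes grouped by role. Over all 9745 genes counted, 13.1% were at least 2-fold higher and 23.2% at least 2-fold lower in RAC1i than in DMSO, and the counts of each list stand against these shares. Of 6 further subunits and IkB proteins, 3 were at least 2-fold higher in RAC1i than in DMSO and none lower, with a median log2 ratio of 0.77 against -0.18 for all genes. NFKBIE, which encodes another inhibitor, was at 1.36, 9.41 and 10.3 CPM (6.92-fold in RAC1i, 6.09 to 7.87) and reached the minimum through the treated libraries, and of the other 5, 2 were 2-fold higher, with a median log2 ratio of 0.52. BCL3 was 4.07-fold (3.82 to 4.35) and NFKBID 2.01-fold (1.92 to 2.11) higher, and REL, the nearest to DMSO, 1.26-fold (1.20 to 1.32). Between Combo and RAC1i this list ran from NFKBID (0.842) to REL (1.17). Of 16 counted signalling components, 3 were at least 2-fold higher and 2 lower, both near the shares over all genes, with a median of 0.05. TAB2 (2.74), CHUK (2.30), TAB3 (2.28), MAP3K7 (1.74) and TRAF6 (1.66) had ratios above 1.5, which is 5 of the 16, where 22.6% of all genes counted were that much higher. A further 4 were at least 1.5-fold lower, against 35.8% of all genes. TRADD, the adaptor of the TNF receptor, was 7.88-fold lower (7.31 to 8.49), FADD 2.45-fold, RIPK1 1.85-fold and the kinase gene IKBKB 1.72-fold lower. TRADD and RIPK1 were below 5 CPM in RAC1i and were counted through DMSO, and of the other 14 only FADD was 2-fold lower. None of the 16 differed by 1.5-fold between Combo and RAC1i, which is near the share over all genes. Of all 9745 genes counted, 32 were that much higher and 52 that much lower. The outermost of the 16 were TRAF2 at 1.35 and TAB3 at 0.751.

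Of 10 counted ubiquitin editors, 1 was at least 2-fold higher in RAC1i and 3 lower, again near the shares over all genes, with a median log2 ratio of -0.57. CYLD, which removes ubiquitin chains and restrains NF-kB, was 5.72-fold (5.37 to 6.09) higher, while RNF31, RBCK1 and SHARPIN, the parts of the complex that builds linear chains, were 3.70, 3.32 and 2.96-fold lower. RNF31 was below 5 CPM in RAC1i and was counted through DMSO. Of 8 counted receptors, 1 was 2-fold higher, the death receptor gene TNFRSF10B (2.43-fold), and 2 were lower, near the same shares, with a median of -0.52. TNFRSF1A, the main TNF receptor, was at 41.9 CPM in DMSO, 19.1 CPM under RAC1i and 19.4 CPM under Combo, and IL1R1 at 73.4, 10.9 and 10.1 CPM. TNFRSF1A went the other way from the 10 genes inside RAC1i too, where it was at 15.8 CPM in cells with CXCL1 and 20.8 CPM in cells without, a ratio of 0.759 (0.661 to 0.872). That ratio was 0.791 (0.675 to 0.926) in Combo and 1.18 (1.00 to 1.39) in DMSO. In Combo over RAC1i, SHARPIN (1.29) and CYLD (0.859) were the outermost editors and TNFRSF12A (1.37) and IL1RAP (0.777) the outermost receptors.

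Of 11 ligand genes other than TNF, 4 were counted, and all 4 were at least 2-fold lower in RAC1i, against 23.2% of all genes, with a median log2 ratio of -1.76. IL18 and TNFSF10 were below 5 CPM in RAC1i and were counted through DMSO, where they were high. IL18 went from 61.6 to 4.75 CPM, 13.0-fold lower (12.2 to 13.8), CD70 was 3.65-fold, TNFSF10 3.15-fold and TNFSF9 2.04-fold lower, and in Combo over RAC1i TNFSF10 was the lowest of them at 0.780. LTA, the ligand gene next to TNF on chromosome 6, lay below the minimum and was looked at after its values were seen. It had 6 UMIs in DMSO (0.0301 CPM) and reached 5.83 CPM under RAC1i and 5.37 CPM under Combo, a ratio of 194 (88.7 to 528) for RAC1i over DMSO. Unlike TNF, LTA in RAC1i was at 6.11 CPM in cells with CXCL1 and 6.57 CPM in cells without, a ratio of 0.929 (0.733 to 1.18), and in Combo the ratio was 1.34 (1.03 to 1.74).

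Of 19 counted further target genes of NF-kB, 10 were at least 2-fold higher in RAC1i and none lower, with a median log2 ratio of 1.48, and in Combo 9 were higher, against 12.0% of all genes, with a median of 0.96. CXCL3, CXCL8, IL6, IL32 and ZC3H12A were below 5 CPM in DMSO and were counted through the treated libraries. Of the remaining 14, 5 were 2-fold higher in RAC1i, with a median log2 ratio of 0.43, and 4 in Combo, with a median of 0.13. IL6 (49.3-fold) led in RAC1i, and PLAU was lowest at 0.711. CXCL8 was at 3.40, 35.1 and 14.2 CPM, CXCL3 at 4.34, 25.1 and 16.6 CPM and CXCL2 at 6.43, 20.1 and 11.5 CPM. In Combo over RAC1i, CXCL8 (0.406) was the lowest of the list and IRF1 (1.14) the highest. Of 13 immediate early and heat shock genes, 5 were at least 2-fold higher in RAC1i and 3 lower (13.1 and 23.2% of all genes), from ATF3 (22.3-fold) to EGR1 (0.308), with a median of 0.23. Their summed level, which also tracks handling of cells, was 1090 CPM in DMSO, 2033 CPM under RAC1i and 1996 CPM under Combo, and its part in the results was not tested. In Combo over RAC1i they ran from FOSB (0.816) to JUN (1.19).

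Of 16 proliferation genes, none was 2-fold higher and 7 were lower in RAC1i, where 23.2% of all genes were lower, from MCM5 (0.283) to HMMR (1.29), with a median log2 ratio of -0.50, and in Combo over RAC1i they ran from RRM2 (0.706) to MCM5 (1.22). None of 8 reference genes differed by 2-fold in either treated library, from HPRT1 (0.597) to PPIA (1.78) in RAC1i over DMSO, and YWHAZ (0.825) was the lowest in Combo over RAC1i. Of the 9 epithelial and serous markers, 5 were at least 2-fold lower in RAC1i, against the same 23.2%, from PAX8 (0.153), a lineage factor, to CLDN4 (0.924), and in Combo over RAC1i they ran from WT1 (0.754) to CLDN3 (1.38).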

How the data were processed

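Single cells of 3 OVCAR3 cultures (DMSO, RAC1i and Combo, 48 hours, 1 library each) were profiled with the 10x 3′ kit. The deposited counts give, for each barcode and gene, UMIs as whole numbers, which the authors made with Cell Ranger 4.0.0 on GRCh38 (per the submitters' processing notes), without normalization. A library with only EZH2i is not analysed here.

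Cells needed over 1000 genes, a mitochondrial share of no more than 20% and a complexity (log10 genes over log10 UMIs) over 0.8, as in the study's methods. Doublets were not removed, and an alternative left out the 5% of cells with the most UMIs. UMIs were summed over cells and scaled to CPM. Genes were counted when their CPM averaged over the 3 libraries was at least 5, or, inside a library, when it was at least 5 over both groups of cells. Limits were 2-fold against DMSO and 1.5-fold for Combo over RAC1i and inside a library. Thinning drew 5000 UMIs per cell without replacement. CXCL1 or TNF was left out of the total when it divided the cells. Intervals were exact Poisson (CPM), exact conditional (ratio) and Clopper-Pearson (share) at 95% and cover counting error only. With 1 library per condition no test across samples was made, and cells are not replicates. Thinning and ratios were tested on simulated data.

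The kept cells held 199063947 UMIs in DMSO, 234969742 in RAC1i and 212792113 in Combo, and the precision of a value depends on the UMIs of that gene.

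The 10 genes and the lists were chosen with earlier results of these data known. Named were the 10 genes, CXCL1, CXCL2, CXCL3, CXCL8 and IL6, in each list the gene highest and the gene lowest among counted genes in RAC1i over DMSO and in Combo over RAC1i, signalling components that differed 1.5-fold, and for NFKBIA, TNFAIP3, TNF and NFKB2 the 5 genes with the highest mean r (log1p of thinned counts). RELA, BCL3, NFKBID, RBCK1, SHARPIN, TNFRSF1A, CD70, TNFSF9, LTA, IL32, ZC3H12A and the markers EPCAM, PTPRC, CD14 and ITGAM were named outside this rule, after their values were seen. 1 item that the rule names is not reported here. Gene positions are from GENCODE 44 on GRCh38 and windows from RefSeq GRCh38.p14.

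Alternatives were another mitochondrial limit (10%), every barcode, TMM from edgeR 4.0.16, size factors from DESeq2 1.42.0, totals without mitochondrial genes, means over cells, other depths of thinning (2500 and 10000), a second random draw, at least 2 CXCL1 UMIs, other minimums (1 and 20 CPM) and other folds. Python 3.11.15, numpy 2.4.6, scipy 1.17.1, pandas 2.3.3 and R 4.3.3 were used.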

Additional observations from a re-analysis of the deposited data

How the results depend on the processing

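Under the alternatives, 9 of 9 counted genes at least 2-fold higher in RAC1i than in DMSO became between 6 and 10, and within 1.5 times of the main count under all 12. The count of 7 came from totals without mitochondrial genes and from cells with at least 10000 UMIs, where NFKB2 and RELB fell short of 2-fold, and the count of 6 from a minimum of 20 CPM, under which 6 genes were counted. For Combo over DMSO the 8 genes became between 5 and 9, with 5 of 6 counted genes at a minimum of 20 CPM. For Combo over RAC1i, where TNF alone was 1.5-fold lower, the count was 0 with the mean over cells of CPM and 0 with a limit of 2-fold, and 1 under the other 10 alternatives. In cells divided by CXCL1 with a limit of 2-fold, the counts were 0 of 6 for DMSO cells, 4 of 9 for RAC1i cells and 4 of 9 for Combo cells, against 25 of 9991, 60 of 9156 and 44 of 9197 genes counted. The DMSO count of 4 was 2 with thinning to 10000 UMIs, 2 without thinning and 2 with another random draw (NFKBIA and IER3 each time), and 7 of 9 at a minimum of 1 CPM. Of 478 ratios of single genes under an alternative, 327 stayed within the counting interval of the main value, 151 moved outside it and 0 changed direction while called. Among ratios short of the limit, Combo over RAC1i turned for RELB, which kept its direction in 7 of 9 alternatives (down to 0.994), and for NFKBIA, which kept it in 8 of 9 (up to 1.00). BIRC3 and ICAM1 gave no ratio in DMSO with thinning to 2500 UMIs, having 0 UMIs in the cells with CXCL1. No paired analysis was possible because each condition had 1 library. For the same reason no library could be left out. Doublets were not called, and counting intervals leave out the spread between cultures.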
